A study of Mus musculus with 16 samples.

Results

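Expression of 9 genes of the growth hormone and insulin-like growth factor (IGF) axis was examined in the liver of mice that had received a vehicle or a caecal microbiota. The 9 genes, Ghr, Igf1, Igfals, Socs2, Cish, Igfbp2, Igfbp3, Igfbp4 and Stat5b, were taken by name from the 37074 gene names on the array, where they are measured by 20 probes, and all 9 were among the 20404 genes that were bright enough to be tested. Livers came from 16 male C57BL/6 mice, 10 weeks old per the labels, which had eaten normal chow (NC) over 4 weeks, starting at 6 weeks of age, and had never been given antibiotics. The groups were 6 Conv + PBS mice, inoculated with reduced phosphate-buffered saline (the labels call them not transplanted), 5 Conv + LM mice, inoculated with caecal content of lean NC-fed donors (lean microbiota), and 5 Conv + OM(HFD) mice, inoculated with caecal content of donors made obese by a high-fat diet (obese microbiota). Inoculations were given by gavage once per week for 2 weeks, the caecal content of several donors was pooled for each microbiota, and livers were taken after a 6-h fast. Each mouse was hybridized to its own array, and the p-values below measure the spread between these mice. Animals were housed 5 or 6 to a cage, which is also the number of mice in each group. Which mice shared a cage was not given, so that cage and inoculation cannot be told apart here.

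Growth hormone is released from the pituitary in pulses and binds its receptor, encoded by Ghr, on hepatocytes. The receptor activates the kinase JAK2, which phosphorylates the transcription factor STAT5B, and STAT5B in turn drives the genes of the IGF system and of its own inhibitors. The liver makes most of the circulating IGF1, which travels in blood bound to IGF-binding proteins, and the largest of these complexes holds IGFBP3 and the acid-labile subunit encoded by Igfals. Socs2 and Cish encode suppressors of cytokine signalling that are induced by STAT5 within a short time of a pulse and switch the receptor off, so that their transcripts rise and fall with the pulses.

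All 9 genes were well above background on all 16 arrays. The 75th percentile of spot intensity ranged between 223.1 and 323.7 and the share of spots well above background between 51.9% and 60.1%, both with overlap between the groups. Pairs of arrays correlated at r = 0.976 to 0.993 over all genes. The level given below is log2 of the spot intensity minus the 75th percentile of the array, so that a level of 0 is the brightness of the 75th percentile, and since probes differ in how well they bind, levels are compared between mice for a given probe and never between genes. The 9 hepatocyte markers examined, Alb (albumin) among them, were all above background, and their summed signal, relative to the 75th percentile, ranged between 6057 and 7445 in Conv + PBS, 6108 and 7684 in Conv + LM, and 6593 and 7523 in Conv + OM(HFD) mice. In whole liver, fewer cells of a type and less RNA per cell cannot be told apart.

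The microbiota groups overlapped for every gene of the axis, as the plot of levels by mouse shows. Socs2 and Cish spread over a 2.77-fold to 10.99-fold range within each group, while over all 16 mice the other 7 genes spanned between 1.46-fold (Stat5b) and 2.38-fold (Igfbp2).

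**Figure D1:**
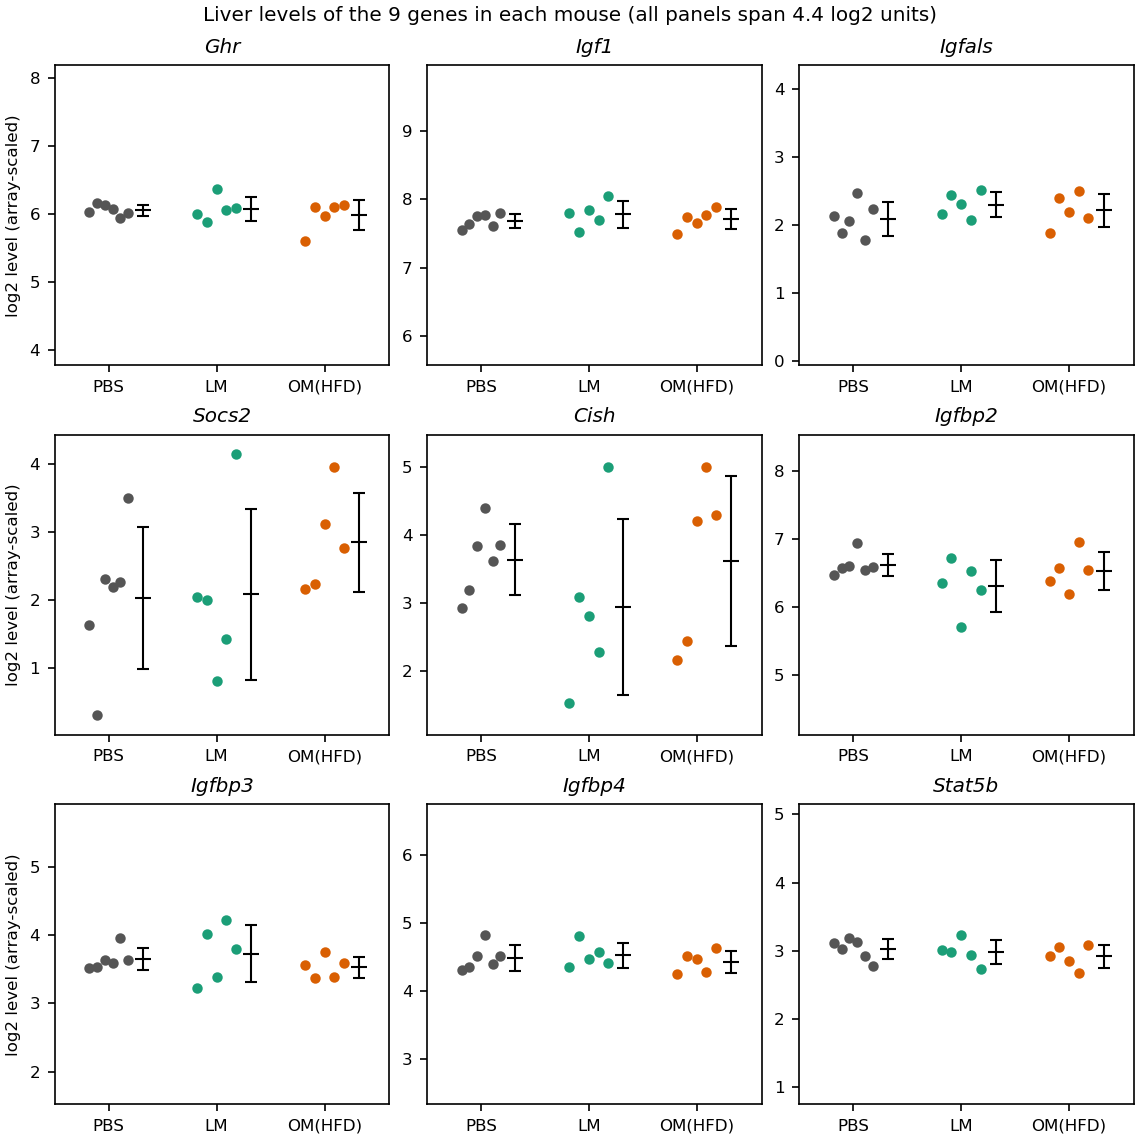
Log2 level of each of the 9 genes (array-scaled log2 intensity, vertical axis) in every mouse of the Conv + PBS (n = 6), Conv + LM (n = 5) and Conv + OM(HFD) (n = 5) groups. Each point is 1 mouse, the bar beside the points is the group mean with its SD, and all panels have the same height in log2 units. Socs2 spans 0.31 to 4.14 and Cish 1.54 to 4.998, while Igf1 stays between 7.49 and 8.05.

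Ghr, the growth hormone receptor, was measured by a probe at chr15:3277543-3277602 on the minus strand (mm9, as all probe positions here), assigned by the array design to transcript variant 2. Its level was 5.94 at the lowest, 6.05 at the median and 6.16 at the highest in Conv + PBS mice. The Conv + LM mice had levels of 6.00, 5.89, 6.36, 6.06 and 6.09, and the Conv + OM(HFD) mice 5.60, 6.10, 5.97, 6.10 and 6.14. Apart from Conv + OM(HFD) mouse 25, which was the lowest of all, and Conv + LM mouse 15, which was the highest, both microbiota groups lay in or near the range of the vehicle mice. A probe for transcript variant 1 (chr15:3268107-3268166) and a probe whose ends lie 7453 bases apart in the genome, at chr15:3283509-3290961, followed the first across mice (r = 0.76 and r = 0.67 on deviations from group means). The remaining Ghr probe, at chr15:3295320-3295379 and assigned to another transcript, did not follow it (r = 0.09) and varied more between mice of a group, with a pooled SD of 0.66 against 0.17.

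Stat5b, the transcription factor downstream of the receptor, ranged between 2.78 and 3.19 in Conv + PBS mice, with a median of 3.07 (probe at chr11:100642045-100642104, minus strand). In Conv + LM mice the levels were 3.01, 2.99, 3.23, 2.94 and 2.74, and in Conv + OM(HFD) mice 2.92, 3.06, 2.85, 2.67 and 3.08. The groups covered almost the same range. A second, far dimmer probe for a cDNA clone (chr11:100682720-100682779) showed r = 0.37 with the first.

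Socs2, a feedback inhibitor of the growth hormone receptor, had a level of 0.31 in the lowest, 2.23 at the median and 3.50 in the highest Conv + PBS mouse, a 9.1-fold range. The Conv + LM mice had levels of 2.04, 1.9999, 0.81, 1.44 and 4.14. The Conv + OM(HFD) mice had levels of 2.17, 2.24, 3.12, 3.95 and 2.77. The highest mouse of all was Conv + LM mouse 17, followed by Conv + OM(HFD) mouse 29 and Conv + PBS mouse 6, so that each group held a mouse at the top, and the lowest of the Conv + OM(HFD) mice stood near the median of the vehicle group.

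The Socs2 probes gave nearly the same order of mice. The probe used above lies at chr10:94875066-94875125, on the minus strand, and a second at chr10:94875468-94875527. They correlated at r = 0.99 on deviations from group means (Spearman's rho = 0.96), and both correlated with a dimmer probe at chr10:94850747-94850806 (r = 0.90 and r = 0.92). The second probe spanned -0.85 to 3.01, with Conv + PBS mouse 2 again the lowest and Conv + LM mouse 17 again the highest. The dimmest probe, which did not pass the filter, was above background in 4 of the 16 mice, and these were Conv + PBS mice 4 and 6, Conv + LM mouse 17 and Conv + OM(HFD) mouse 29. The second Socs2 probe, which reads open in 1 of its 3 forward frames, is shown because it reports nearly the same order of mice as the probe used here:
Socs2 probe: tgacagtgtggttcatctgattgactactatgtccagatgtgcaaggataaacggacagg

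Cish, which encodes another suppressor of cytokine signalling induced by STAT5, was measured by a single probe at chr9:107204196-107204255 on the plus strand. Its level was 2.92 at the lowest, 3.72 at the median and 4.39 at the highest in Conv + PBS mice. The Conv + LM mice had levels of 1.54, 3.09, 2.81, 2.28 and 4.998, a 10.99-fold range. The Conv + OM(HFD) mice had levels of 2.16, 2.45, 4.21, 4.99 and 4.29, a 7.12-fold range. In this last group mice 25 and 26 lay below every vehicle mouse, mouse 29 lay above, and mice 28 and 30 lay close to the highest vehicle mouse. In the Conv + LM group 3 mice lay below every vehicle mouse, mouse 14 lay within the vehicle range and mouse 17 above it.

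Igf1, the hormone itself, stayed within a narrow range on the probe used. Its level was 7.55 at the lowest, 7.70 at the median and 7.80 at the highest in Conv + PBS mice (probe at chr10:87393516-87393575, plus strand, transcript variant 1). The Conv + LM mice had levels of 7.80, 7.52, 7.85, 7.70 and 8.05, and the Conv + OM(HFD) mice 7.49, 7.74, 7.66, 7.77 and 7.89. The highest of the 16 mice was 1.48-fold above the lowest. A probe for transcript variant 2 (chr10:87378456-87378515) followed it with r = 0.71 but over a wider range, between 2.07 and 3.97. On that probe the Conv + OM(HFD) vs. Conv + LM difference was 0.47 on the log2 scale (95% confidence interval -0.18 to 1.13), and the sign for Conv + LM vs. Conv + PBS was opposite to that of the first probe (-0.26 against 0.09). The remaining probe, for a cDNA clone at chr10:87325382-87325441, showed r = 0.16 with the first.

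Igfals, the acid-labile subunit that holds IGF1 and IGFBP3 in the circulating complex, was measured by a single probe at chr17:25018251-25018310 on the plus strand. It ranged between 1.77 and 2.46 in Conv + PBS mice, with a median of 2.09. The Conv + LM mice had levels of 2.15, 2.44, 2.31, 2.07 and 2.51 and the Conv + OM(HFD) mice 1.89, 2.39, 2.19, 2.50 and 2.10. The groups overlapped, with Conv + LM mouse 17 and Conv + OM(HFD) mouse 29 above every vehicle mouse and no mouse of either microbiota group below the lowest vehicle mouse. Its mean was 0.27 higher on slide 2 than on slide 1, more than its SD within groups, and each slide held mice of all groups. The sequence of its probe, open in 1 of 3 forward frames, is given because it is the only measurement of this gene:
Igfals probe: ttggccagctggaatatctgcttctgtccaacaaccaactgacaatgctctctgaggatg

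Among the binding proteins, Igfbp2, whose transcript in liver is known to fall with insulin, ranged between 6.47 and 6.94 in Conv + PBS mice, with a median of 6.58 (chr1:72898677-72898736, plus strand). Its levels were 6.36, 6.72, 5.70, 6.53 and 6.25 in Conv + LM mice and 6.38, 6.58, 6.20, 6.95 and 6.54 in Conv + OM(HFD) mice. Conv + LM mouse 15 was the lowest of all 16 mice. Igfbp3, the partner of IGF1 in the large complex, which in liver is made mostly by non-parenchymal cells, ranged between 3.52 and 3.96 in Conv + PBS mice, with a median of 3.61 (chr11:7106193-7106252, minus strand). It was at 3.22, 4.02, 3.39, 4.22 and 3.80 in Conv + LM mice, which held both the lowest and the highest value, and at 3.56, 3.37, 3.75, 3.39 and 3.59 in Conv + OM(HFD) mice. A second Igfbp3 probe did not reach the background threshold on a single array. Igfbp4 ranged between 4.31 and 4.83 in Conv + PBS mice, 4.35 and 4.81 in Conv + LM mice and 4.25 and 4.64 in Conv + OM(HFD) mice (chr11:98913334-98913393, plus strand), and its second probe (chr11:98909591-98909650) followed with r = 0.63.

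The spread between mice set Socs2 and Cish apart from the other 7 genes. The SD between mice of the same group, pooled over the groups, was 1.03 for Socs2 and 1.05 for Cish on the log2 scale, above that of 98.2% and 98.3% of the 20328 genes measured without a gap on all arrays, whose median SD was 0.24. Within the groups, in the order vehicle, lean and obese microbiota, the SD was 1.041, 1.25 and 0.73 for Socs2 and 0.52, 1.29 and 1.24 for Cish, a difference that was not tested. Among genes within 0.5 log2 units of their own mean level, 99.8% of 1923 genes varied less than Socs2 and 99.9% of 1613 varied less than Cish. The corresponding SD was 0.15 for Igf1, 0.16 for Stat5b, 0.17 for Ghr and 0.18 for Igfbp4, with 20.2% to 30.5% of genes varying less. Igfals (0.23), Igfbp3 (0.27) and Igfbp2 (0.28) stood above 46.8% to 59.6% of genes. Against genes of their own level these places were higher, at 92.5% for Igfbp2, 85.8% for Igfbp3, 69.9% for Igfals, 67.2% for Igf1, 64.7% for Ghr, 62.2% for Igfbp4 and 43.1% for Stat5b. In 3 other treatments of the intensities and with values centred by group and slide, Socs2 lay above 98.1% to 99.8% and Cish above 98.2% to 99.8% of genes. The place of the other genes moved more under these settings, with Igf1 above 10.5% to 35.1%, Igfals above 29.5% to 67.3%, Igfbp2 above 54.7% to 86.8% and Igfbp3 above 59.6% to 88.3% of genes. Without Conv + LM mouse 17, the mouse with the highest level of both, the SD of Socs2 was 0.84 and that of Cish 0.86.

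**Figure D2:**
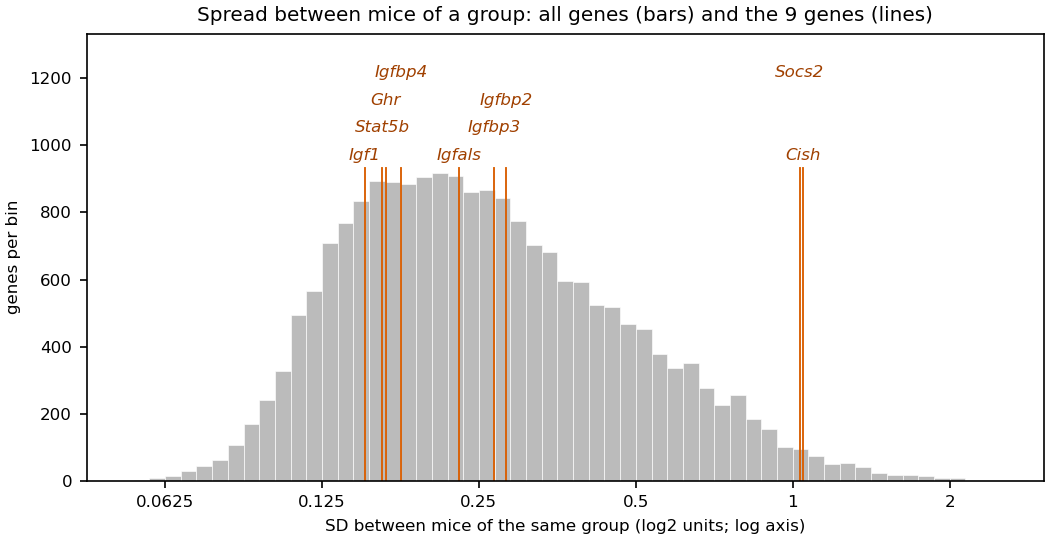
Distribution over 20328 genes of the SD between mice of the same group, pooled over the 3 groups (horizontal axis, log2 units on a log axis; bars give the number of genes per bin), with the 9 genes marked by lines. Socs2 (1.03) and Cish (1.05) lie in the right tail, and the other 7 genes lie between 0.15 and 0.28.

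The comparison of Conv + OM(HFD) vs. Conv + PBS mice asked whether the obese microbiota moved the axis. The largest difference was that of Socs2, 0.81 ± 0.58 (SE) on the log2 scale or 1.76-fold, with a 95% confidence interval of 0.75-fold to 4.11-fold (limma p = 0.179, exact two-sided permutation p = 0.18, n = 5 and 6). It was 0.47 without Conv + PBS mouse 2 and 1.105 without Conv + PBS mouse 6, the lowest and highest values with a mouse left out. On the second Socs2 probe it was 0.65, and on the dimmer probe that passed the filter 0.36. Cish differed by -0.01 ± 0.58, and its interval ran between 0.418-fold and 2.35-fold. Igf1 differed by 0.02 ± 0.10, with an interval of 0.878-fold to 1.17-fold, and Ghr by -0.08 ± 0.10, with an interval of 0.813-fold to 1.11-fold. For all 7 genes other than Socs2 and Cish, the intervals lay between 0.734-fold and 1.34-fold. At an unadjusted p under 0.05 in limma, 0 of the 9 genes passed, where 3.25% of all 20404 genes did (1.49% higher and 1.76% lower).

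The comparison of Conv + LM vs. Conv + PBS mice asked the same of the lean microbiota. Igfbp2 had the smallest p of the 9 genes, with a difference of -0.31 ± 0.16 (SE), or 0.809-fold, and an interval of 0.634-fold to 1.03-fold (limma p = 0.0831, exact two-sided permutation p = 0.0931, n = 5 and 6). Igfals differed by 0.21 ± 0.14, or 1.16-fold, with an interval of 0.945-fold to 1.42-fold. Cish differed by -0.69 ± 0.58, or 0.62-fold, with an interval of 0.262-fold to 1.47-fold, and Socs2 by 0.05 ± 0.58. Of the 9 genes 0 passed an unadjusted p under 0.05, where 3.88% of all genes did (1.79% higher and 2.09% lower). These 2 comparisons share the Conv + PBS mice.

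In the comparison of Conv + OM(HFD) vs. Conv + LM mice, Socs2 differed by 0.76 ± 0.60, or 1.7-fold (0.699-fold to 4.13-fold), and Cish by 0.67 ± 0.61, or 1.6-fold (0.648-fold to 3.93-fold). Conv + LM mouse 17 held both differences down. Without it, Socs2 differed by 1.28 and Cish by 1.19, and in Conv + LM vs. Conv + PBS mice Cish differed by -1.20, all past the unadjusted threshold in limma. Igf1 differed by -0.07 ± 0.10 and Igfbp2 by 0.22 ± 0.17. With all mice, 0 of 9 genes passed an unadjusted p under 0.05, where 2.67% of all genes did (1.38% higher and 1.29% lower). Leaving out other mice brought single genes past the same threshold: Igfals in Conv + LM vs. Conv + PBS without Conv + PBS mouse 4 (0.29, with 3.81% of all genes past it), Igfbp2 in the same comparison without Conv + LM mouse 14 (-0.41, 3.37% of all genes), and Igfbp3 in Conv + OM(HFD) vs. Conv + LM without Conv + LM mouse 13 (-0.32, 2.35% of all genes). Leaving out others shrank the same differences, to 0.15 for Igfals, -0.15 for Igfbp2 and -0.34 for Cish in Conv + LM vs. Conv + PBS, and to -0.08 for Igfbp3, 0.44 for Socs2 and 0.32 for Cish in Conv + OM(HFD) vs. Conv + LM. Without Conv + LM mouse 17, 3.51% of all genes passed in Conv + OM(HFD) vs. Conv + LM and 4.37% in Conv + LM vs. Conv + PBS.

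**Figure D3:**
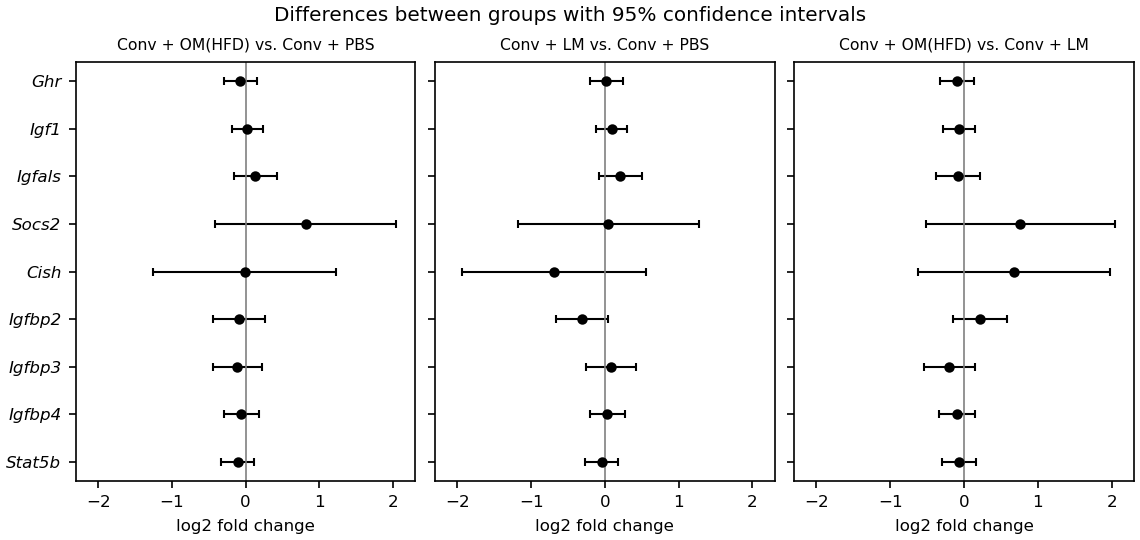
Log2 fold change of each gene (points) with its 95% confidence interval (bars) in the 3 comparisons, from the limma fit over all genes. Every interval crosses 0, and those of Socs2 and Cish are the widest, running for Socs2 in Conv + OM(HFD) vs. Conv + PBS mice between -0.41 and 2.04.

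With p-values adjusted by Benjamini-Hochberg over all genes, 0 genes were called by limma at 0.05 in each comparison, the smallest adjusted p being 0.998. At an unadjusted p under 0.05 it called 663, 792 and 545 genes in the order given above. By the methods' t-test 608, 746 and 586 genes passed, of the 9 again 0. By exact permutation, which can give no p below 0.00216 for 5 mice against 6 and 0.00794 for 5 against 5, the smallest p of the 9 genes was 0.18, 0.0931 and 0.278. The groups did not overlap for 0 of the 9 genes in any comparison, where this was so for 0.23%, 0.279% and 0.436% of all genes. Of all genes called in Conv + LM vs. Conv + PBS mice 46.2% were higher, against 56.3% with the values processed by the authors. The median change of the 9 genes was -0.06, 0.04 and -0.07, beside -0.0021, -0.011 and 0.0034 over all genes.

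The wider pathway was read from 8 lists that hold 75 genes beside the 9, of which 62 were tested. They cover the receptor's signal transducers, its inhibitors, the IGF ligands and receptors, the binding proteins with their proteases, and the transcription factors and sex-biased genes under growth hormone control. In Conv + OM(HFD) vs. Conv + PBS mice 1 of the 62 genes was higher and 0 lower at an unadjusted p under 0.05 (1.61%, beside 3.25% of all genes), in Conv + LM vs. Conv + PBS mice 1 was higher and 1 lower (3.23%, beside 3.88%), and in Conv + OM(HFD) vs. Conv + LM mice 0 passed. The gene higher with the obese microbiota was Tox, a transcription factor, at -0.04 ± 0.36 (SD, n = 5) against -0.73 ± 0.57 (SD, n = 6), with limma p = 0.0207 and exact p = 0.0433. With the lean microbiota Cyp4a12a, a male-biased cytochrome P450, was higher by 0.42 (limma p = 0.0485, exact p = 0.0801), and Socs7, of the same family as Socs2, was lower by 0.19 on average, at 2.87 ± 0.10 against 3.06 ± 0.13 (limma p = 0.0392, exact p = 0.0238).

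Group by group, the median change of the 13 receptor and transducer genes was -0.04 in Conv + OM(HFD) vs. Conv + PBS, -0.03 in Conv + LM vs. Conv + PBS and -0.04 in Conv + OM(HFD) vs. Conv + LM mice. That of the 12 inhibitors was 0.07, 0.01 and 0.09, and that of the 8 binding protein genes -0.10, 0.06 and -0.12. Male-biased genes, which depend on the pulsed growth hormone pattern of males, had a median change of 0.08, 0.22 and -0.13 over 16 genes. Of 18 female-biased genes 11 were tested, with a median change of -0.10, -0.22 and 0.08. Of the IGF ligands and receptors, Igf2 was not above background, and of 5 genes of IGFBP proteases and their inhibitors only Htra1 passed the filter.

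Across mice, the genes of the axis were compared pair by pair on deviations from group means, over all 16 mice and with mice permuted within groups. Of 36 pairs, 4 passed an unadjusted permutation p under 0.05 by Pearson's r and 4 by Spearman's rho, and 0 passed after adjustment over the 36, the smallest adjusted p being 0.136 and 0.149. The signs were positive in 24 pairs. The pairs named below are the 5 that passed either threshold. Set against all genes, the |r| of Socs2 with Cish was larger than that of 97.0% of genes with Socs2 and 95.4% with Cish, that of Igfals with Cish than 94.6% with Igfals and 86.9% with Cish, and that of Igf1 with Cish than 87.7% with Igf1 and 88.5% with Cish.

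**Figure D4:**
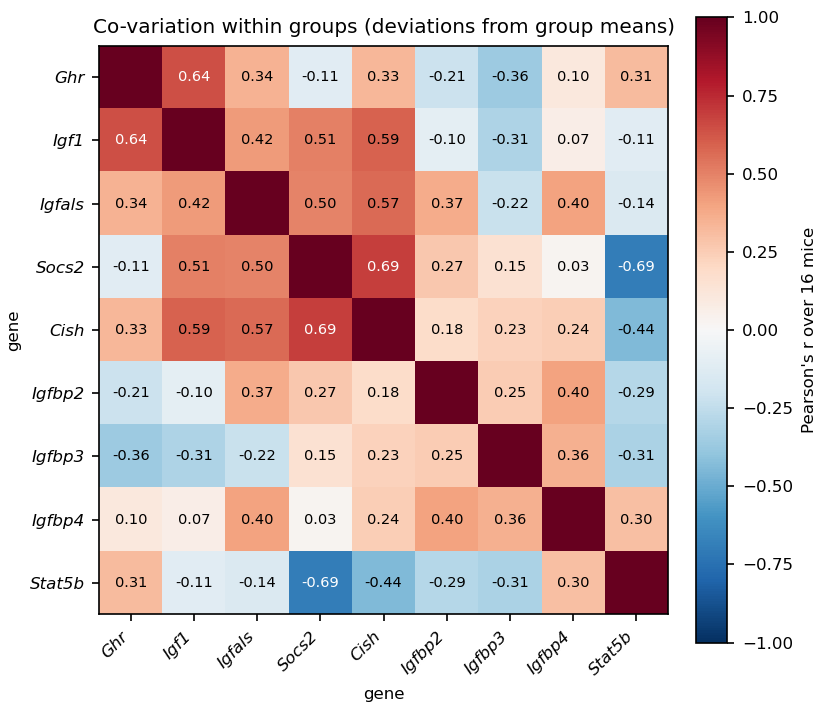
Pearson's r of each pair of the 9 genes over 16 mice, computed on deviations from group means (colour scale from -1 to 1, values written in the cells). The strongest positive value is that of Socs2 with Cish (0.69) and the strongest negative that of Socs2 with Stat5b (-0.69), and Igf1, Igfals, Socs2 and Cish are positive with each other.

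Socs2 and Cish, both inhibitors of the receptor, rose and fell together, with r = 0.69 (permutation p = 0.00476, adjusted p = 0.136) and rho = 0.72 (p = 0.00415, adjusted p = 0.149). Without the 2 mice farthest from the median of Socs2, Conv + PBS mouse 2 and Conv + LM mouse 17, r was 0.54. The relation was positive on both slides, at r = 0.48 on slide 1 and r = 0.84 on slide 2, and in all 3 groups, at r = 0.57 in Conv + PBS, 0.75 in Conv + LM and 0.92 in Conv + OM(HFD) mice. Conv + LM mouse 17 and Conv + OM(HFD) mouse 29 held the highest levels of both genes, but Conv + LM mouse 13, the lowest for Cish (1.54), was at 2.04 for Socs2, and Conv + PBS mouse 2, the lowest for Socs2 (0.31), was at 3.19 for Cish.

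Socs2 and Stat5b ran in opposite directions, with r = -0.69 (permutation p = 0.00754, adjusted p = 0.136) and rho = -0.51 (p = 0.0621, adjusted p = 0.373). Without the same 2 mice r was -0.78. With values centred by group and slide r was -0.70, with permutation p = 0.0575. It was not seen on both slides: r was 0.06 on slide 1 and -0.91 on slide 2. The 3 mice with the highest Socs2, Conv + LM mouse 17, Conv + OM(HFD) mouse 29 and Conv + PBS mouse 6, were the 3 with the lowest Stat5b, at 2.74, 2.67 and 2.78.

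Ghr and Igf1, receptor and hormone, were positively related over their narrow ranges, with r = 0.64 (permutation p = 0.0258, adjusted p = 0.232) and rho = 0.61 (p = 0.0189, adjusted p = 0.227). Without Conv + LM mouse 15 and Conv + OM(HFD) mouse 25 r was 0.62, but r was 0.84 on slide 1 and 0.03 on slide 2. It no longer passed with quantile normalization (r = 0.50, permutation p = 0.0679), with values centred by group and slide (r = 0.56, permutation p = 0.14), without Conv + LM mouse 14 (r = 0.57, permutation p = 0.0698) or without Conv + OM(HFD) mouse 25 (r = 0.51, permutation p = 0.167). Igfals and Cish reached r = 0.57 (permutation p = 0.0246, adjusted p = 0.232) and rho = 0.58 (p = 0.0329, adjusted p = 0.297), with r = 0.83 on slide 1, 0.82 on slide 2 and 0.57 without Conv + PBS mouse 5 and Conv + LM mouse 17. Its r ranged between 0.47 and 0.72 with single mice left out, and it no longer passed without Conv + PBS mouse 4, Conv + LM mouse 17, Conv + OM(HFD) mouse 25 or Conv + OM(HFD) mouse 29. Igf1 and Cish reached r = 0.59 (permutation p = 0.0523, adjusted p = 0.36) and rho = 0.64 (p = 0.0144, adjusted p = 0.227). This r was 0.12 without both Conv + LM mouse 17 and Conv + OM(HFD) mouse 25, but 0.82 within Conv + PBS, 0.53 within Conv + LM and 0.61 within Conv + OM(HFD) mice, and it passed without Conv + LM mouse 13 (r = 0.67, permutation p = 0.0278), Conv + LM mouse 14 (r = 0.73, permutation p = 0.0099) or Conv + OM(HFD) mouse 26 (r = 0.66, permutation p = 0.0362). Array brightness, as the 75th percentile of intensity, was related to Ghr (r = -0.53, permutation p = 0.0244) and Igfals (r = -0.55, p = 0.0456) but not past adjustment over the 18 relations with brightness and detection (adjusted p = 0.411 for both), and r was -0.07 for Socs2 and -0.16 for Cish. Its part in the relations of Ghr and Igfals was not tested.

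**Figure D5:**
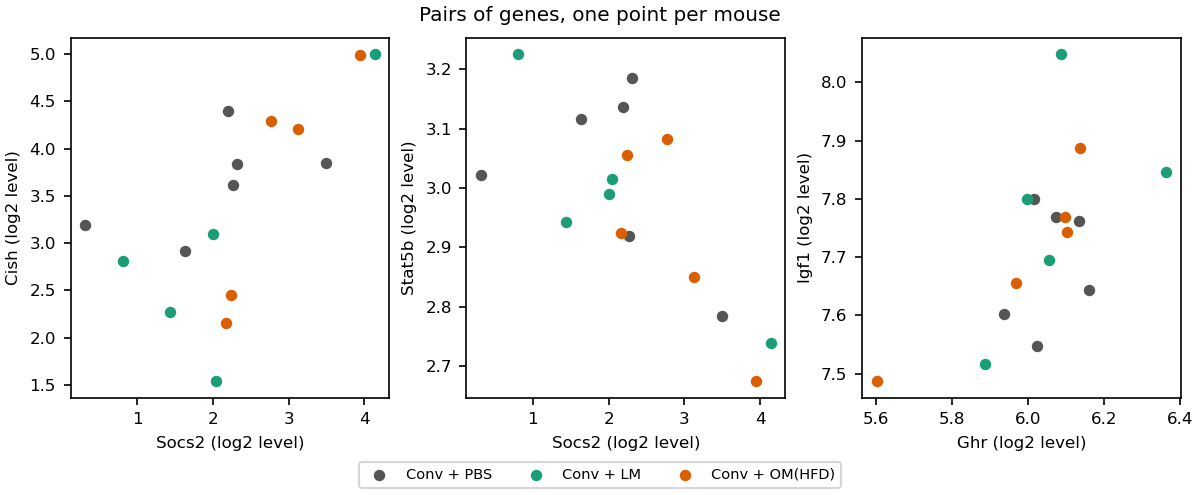
Log2 levels of Cish against Socs2, Stat5b against Socs2 and Igf1 against Ghr, with 1 point per mouse coloured by group. The axes are array-scaled log2 levels. Conv + LM mouse 17 (Socs2 4.14, Cish 4.998) and Conv + OM(HFD) mouse 29 (3.95, 4.99) lie at the upper right of the first panel and at the lower right of the second.

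Genes outside the axis were set against the 9 in the same way, with 97 genes of the lists and 873 relations in all. Of these 122 passed an unadjusted permutation p under 0.05 by Pearson's r and 0 after adjustment, the smallest adjusted p being 0.132. The share of all genes that would pass was not counted, so that 122 is not a result about these lists. For scale, the r of 0.57 of Igfals with Cish, which passed, was larger in size than that of 86.9% of all genes with Cish. The values below are a description of the genes that moved with Socs2 and Cish within groups, chosen after their values were seen, and their part in the levels of the axis was not tested. Onecut1, a hepatocyte transcription factor that growth hormone is known to induce, ranged between 3.05 and 6.83 and had r = 0.79 with Cish, 0.71 with Socs2 and 0.80 with Igf1. It was highest in Conv + LM mouse 17 (6.83), Conv + OM(HFD) mouse 29 (6.26) and Conv + PBS mouse 6 (6.22), the 3 mice with the highest Socs2. Irs2, the insulin receptor substrate that rises with fasting, had r = 0.80 with Socs2, 0.67 with Cish and 0.79 with Igf1.

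Fasting and clock genes were counted by the sign of r, of which none passed adjustment. Over all genes r was positive for 54.3% with Socs2, 57.2% with Cish and 59.6% with Igf1. Of 11 genes of the fasting response 10 were positively related to Socs2 (median r = 0.64), 10 to Cish (median r = 0.60) and 10 to Igf1 (median r = 0.64). Pdk4, which spares glucose in fasting and ranged between -1.09 and 4.77, had r = 0.76 with Socs2 and 0.74 with Cish. All 4 clock genes of the activator phase were positively related to each of these 3 genes, Arntl with r = 0.74 for Cish, 0.57 for Socs2 and 0.66 for Igf1. Of 9 clock genes of the repressor phase, 8 were negatively related to each, Dbp with r = -0.73 for Cish, -0.61 for Socs2 and -0.68 for Igf1. Without the 2 mice farthest from the median of the gene of the axis, Arntl had r = 0.64 with Cish but 0.31 with Socs2 and 0.45 with Igf1, and Pdk4 had r = 0.64 with Cish and 0.60 with Socs2. Conv + LM mouse 17 had an Arntl level of 0.32 and a Dbp level of 4.57, beside a range of -2.73 to -0.63 and of 5.55 to 6.58 in the other Conv + LM mice. Between groups, at an unadjusted p under 0.05, 1 of the 9 repressor phase genes passed in Conv + OM(HFD) vs. Conv + LM, where 2.67% of all genes did. Per2, of the repressor phase, was lower with the obese than with the lean microbiota, at 2.76 ± 0.10 against 3.12 ± 0.29 (SD, n = 5 each, limma p = 0.0209, exact p = 0.0476), and 0 of the 11 fasting, 4 activator phase and 12 acute phase genes passed in any comparison.

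Dbp and Arntl of the clock lists, Pdk4 of the fasting list and, of the 9 genes, Cish followed the number that the labels give each mouse (1 to 6 in Conv + PBS, 13 to 17 in Conv + LM, and 25 to 30 without 27 in Conv + OM(HFD) mice). No other gene of the clock and fasting lists was set against the number singly. What the numbers stand for and the time of day at which each liver was taken were not given, and these relations were computed after the data were seen. On deviations from group means, Dbp had r = -0.96 with the mouse number, Pdk4 r = 0.94 and Arntl r = 0.92, with r between -0.98 and -0.94 for Dbp, 0.91 and 0.98 for Pdk4, and 0.92 and 0.95 for Arntl in the single groups. With the mouse number as a covariate in limma, 1817 of 20404 genes (8.91%) had a slope past an adjusted p of 0.05 over all genes, among them Dbp (adjusted p = 2.34e-05). Of the 9 genes, Cish passed it, with r = 0.74 (permutation p = 0.00185, limma adjusted p = 0.0184), rho = 0.77 (permutation p = 0.00175), 0.79 on slide 1 and 0.68 on slide 2, and r = 0.67 without Conv + PBS mouse 1 and Conv + OM(HFD) mouse 25, which were farthest from the middle of their groups. Socs2 had r = 0.62 (permutation p = 0.0139, limma adjusted p = 0.0817), rho = 0.61 (permutation p = 0.0201) and r = 0.62 without those 2 mice. Igf1 had r = 0.62 (permutation p = 0.0143, limma adjusted p = 0.146), rho = 0.62 (permutation p = 0.017) and r = 0.46 without them. The other 6 genes had r between -0.46 (Stat5b) and 0.38 (Igfbp3), beside a median |r| of 0.33 over all genes. The |r| of Cish was larger than that of 93.5% of all genes, that of Socs2 than 84.3% and that of Igf1 than 84.6%. All lay below the 95th percentile of |r| over all genes, 0.77.

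With the mouse number taken out as well as the group means, Socs2 and Cish had r = 0.44 with each other, beside 0.69 before, and Igf1 and Cish 0.24, beside 0.59. The r of Ghr and Igf1 was 0.60, that of Igfals and Cish 0.60 and that of Socs2 and Stat5b -0.59, beside 0.64, 0.57 and -0.69 before. With Cish, Dbp then had r = -0.08, Arntl 0.22, Pdk4 0.18 and Irs2 0.27, and Onecut1 0.58. With Socs2, Dbp had r = -0.09 and Arntl 0.0016, but Pdk4 0.69 and Irs2 0.66. With Igf1, Onecut1 had r = 0.66 and Irs2 0.62, but Dbp -0.36, Arntl 0.30 and Pdk4 0.38, beside -0.68, 0.66 and 0.69 before. The SD left between mice of a group was 0.84 for Socs2 and 0.73 for Cish, above that of 96.9% and 94.8% of genes treated in the same way. The part of the time of day or of the order of handling in the levels of Socs2, Cish and Igf1 was not tested.

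Over all genes, the patterns most like that of Cish across the 16 mice, on deviations from group means, were those of Rgs3 (r = 0.96), Ikzf4 (0.93) and Slc25a30 (0.93). For Socs2 they were Col7a1 (0.93), Nrip1 (0.89) and Rnf186 (0.88). For Igf1 they were Ugt2b34 (0.92), Bfar (0.91) and Prps1l3 (0.91), and for Ghr D130020L05Rik (0.90), Pcsk6 (0.89) and Wdr34 (0.89). Stat5b was most like Ppp1r16a (0.92), Tspan14 (0.87) and Dcaf8 (0.86), and Igfals most like Pusl1 (0.89), Gm7160 (0.87) and Dus1l (0.86). Igfbp2 was most like Tango6 (0.86), B230340J04Rik (0.83) and Tmem259 (0.80), and Igfbp3 most like Osmr (0.90), Matn2 (0.90) and Rptoros (0.86). These values are a description of 16 mice. Rgs3 itself had a wide range, between 1.57 and 4.77, and was highest in Conv + LM mouse 17 and Conv + OM(HFD) mouse 29, as Cish was.

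STAT5 binds palindromic sites of the form TTCNNNGAA, which read the same on both strands. Of 32851 promoters of RefSeq on GRCm38.p6, taken from 250 bases before to 50 after the start, 8.30% held this string. The table held 13 promoters for 8 of the 9 genes, all but Socs2, and 3 of them, of Cish and Igfals, held it. The Cish promoter held it at 0 and 11 bases past the start, in a window of 60 bases at chr9:107296629-107296688 on the plus strand. Igfals held it in 2 of its 3 promoters, at 58 bases before the start in the window chr17:24878147-24878206 and at 236 bases before another start in the window chr17:24877594-24877653, both on the plus strand. The windows are shown, with the string in capitals, because they are the only matches among the promoters of these genes in the table:
Cish promoter: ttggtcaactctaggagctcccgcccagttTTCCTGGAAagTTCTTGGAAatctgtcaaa
Igfals promoter, nearer site: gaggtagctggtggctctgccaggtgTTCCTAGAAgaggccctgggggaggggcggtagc
Igfals promoter, farther site: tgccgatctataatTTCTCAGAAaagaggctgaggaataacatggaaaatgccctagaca
These matches are strings of letters and not measured sites. The promoters of Ghr, Igf1, Igfbp2, Igfbp3, Igfbp4 and Stat5b in the table did not hold the string in this window.

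Markers of other cells were examined beside the axis. The summed signal of 8 stellate cell markers ranged between 73.1 and 99.6 in Conv + PBS, 70.2 and 98.8 in Conv + LM and 63.7 and 89.5 in Conv + OM(HFD) mice, and had r = 0.60 with Cish and 0.33 with Igfbp3 within groups. Bright markers weigh most in such a sum, and Dcn (mean log2 level of 6.22 in Conv + PBS mice) made up most of this one. The median change of the stellate cell list in Conv + OM(HFD) vs. Conv + PBS was -0.27, with single genes between -0.63 and 0.54 and 2 of 8 past an unadjusted p under 0.05, both lower (3.25% of all genes passed), while Des was at -3.05 against -3.59 and Col3a1 at 1.64 against 1.48. In this list Lrat was lower with the obese microbiota than with the vehicle at an unadjusted p under 0.05, by -0.63 and without overlap between the groups (limma p = 0.000352, exact permutation p = 0.00649), and lower than with the lean microbiota by -0.39 (exact permutation p = 0.0238). Of all genes, 0.23% did not overlap between the obese microbiota and the vehicle. Dcn was lower with the obese microbiota than with the vehicle by -0.26 (limma p = 0.0362, exact permutation p = 0.0455). The 8 sinusoidal endothelial markers, all above background, summed to between 46.9 and 53.0 in Conv + PBS, 36.2 and 50.6 in Conv + LM and 31.4 and 52.0 in Conv + OM(HFD) mice, with r = 0.05 for Igfbp3. Their median change was -0.15 with the obese and -0.11 with the lean microbiota against the vehicle, with single genes between -0.48 and 0.17 and between -0.36 and 0.20. Of the 8 genes, 1 was lower and 0 higher at an unadjusted p under 0.05 in each of these comparisons, where 3.25% and 3.88% of all genes passed. Clec4g of this list was lower with the obese microbiota than with the vehicle by -0.48 (exact permutation p = 0.013), and Cdh5 lower with the lean microbiota by -0.31 (exact permutation p = 0.0238). Kupffer cell markers (6 of 6 above background) summed to between 33.8 and 195, 26.8 and 41.2, and 31.0 and 87.1, with r = -0.02 for Socs2 and -0.13 for Cish. Igfbp3 had r = 0.55 with the sum of the pancreas markers and 0.51 with that of the cholangiocyte markers. B cell markers (3 of 4 above background), which summed to between 0.368 and 1.92 over all mice, had r = -0.78 with Igf1, for which r was -0.57 with neutrophil (4 of 6 above background) and -0.48 with Kupffer cell markers. The other marker lists had r between 0.03 (muscle) and 0.39 (sinusoidal endothelium) with Igf1. The neutrophil sum reached 30.7 in Conv + PBS (median 1.07), 1.52 in Conv + LM and 28.8 in Conv + OM(HFD) mice (median 1.47). These r were not computed with mice left out, so that single mice may carry them. Cel, a pancreatic marker of a list with 3 of 6 genes above background, was lower with the obese than with the lean microbiota by -0.55 (limma p = 0.0346, exact permutation p = 0.0556). In that comparison 2.67% of all genes passed an unadjusted p under 0.05. The part of these cells in the levels of the axis was not tested.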

How the data were processed

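Liver RNA of 16 mice (200 ng each) was hybridized to 1-colour Agilent arrays on 2 slides, and groups were taken from the labels. The authors scanned the slides and extracted spots with Agilent Feature Extraction 10.10.1.1, per the file headers, and deposited intensity values on a linear scale, already corrected for background. They also deposited a table of log2 values, which followed log2 of the median spot intensity (r of at least 0.9997 on each array) and was used as an alternative. The names and mm9 positions of probes are those of the array design.

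The deposited intensity values were put on a log2 scale and reduced by the array's 75th percentile. A probe was kept where at least 5 arrays found it well above background (30664 of 56605), and the brightest probe stood for a gene. Groups were compared with limma 3.58.1 in R 4.3.3 over all 20404 genes and 16 arrays, with Benjamini-Hochberg adjustment, and single genes also by exact two-sided permutation. Relations across mice used deviations from group means and 100000 permutations within groups. On simulated data with 200 of 20404 genes changed by 1 on the log2 scale, 152 passed an adjusted p under 0.05 in the right direction for Conv + OM(HFD) vs. Conv + PBS (9 false calls), 159 for Conv + LM vs. Conv + PBS (9) and 133 for Conv + OM(HFD) vs. Conv + LM (6).

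The 9 genes, the lists and the tests were chosen with earlier results of these data known. The genes named are the 9, list genes at an unadjusted p under 0.05 or with groups that did not overlap, the 3 genes most like each of the 9 (for Igfbp4 not reported here), and those said to be chosen afterwards. Lists were written from general knowledge. The alternatives were normexp (offset 50), quantile normalization, the authors' log2 values, no filter, only probes bright on all arrays, a slide block, a fit restricted to the 2 groups in question, weighted arrays, probes averaged by gene or taken singly, the methods' t-test, values centred by group and slide, and leaving out each mouse. The settings for the spread between mice, the exact tests, the agreement of probes and the mouse number of the labels were added after the data were seen. Plots were drawn with matplotlib 3.10.9.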

Additional observations from a re-analysis of the deposited data

Results flagged for a closer look

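Igfbp2 was at 6.94 in Conv + PBS mouse 4, standing apart from the other vehicle mice, of which the next was at 6.61, and Igfbp3 was at 3.96 in Conv + PBS mouse 5, with the next at 3.63. The gap took 0.706 and 0.737 of the group's range, past Dixon's 95% critical value for 6 mice. With 27 combinations of a gene and a group tested, 2 stood out, where chance alone gives about 1 in 20.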

How the results depend on the processing

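No paired analysis was made. No mouse number occurs in more than 1 group, and whether mice at the same place in their groups were matched was not given. With the mouse number, taken relative to its group, as a covariate (chosen after the data were seen), 0 of the 9 genes passed an unadjusted p under 0.05 in any comparison and 930, 1113 and 779 of all genes did, beside 663, 792 and 545. Of 297 member fold changes under 11 other settings, this one included, 291 kept their direction and side of the threshold, and 0 of 9 genes passed an unadjusted p under 0.05 in any of these or probe by probe. The 6 that turned lay near 0: for Conv + OM(HFD) vs. Conv + PBS, Igf1 with normexp (-0.0045), and Cish with slide as a block (0.029) and array weights (0.13), and with the mean of all probes Igf1 (-0.016) and Socs2 (-0.074) for Conv + LM vs. Conv + PBS and Igf1 (0.14) for Conv + OM(HFD) vs. Conv + LM. The cause was not tested. Over all genes, Conv + OM(HFD) vs. Conv + LM gave 862 calls (4.22%) with slide as a block, beside 545 (2.67%). With every probe on its own it gave 825, but of 30664 probes (2.69%). The pairs of genes past an unadjusted p under 0.05 fell from 4 to 2 with values centred by group and slide, where Socs2 with Stat5b (r = -0.70) and Ghr with Igf1 (r = 0.56) no longer passed. The r of probes turned sign in 2 cases near 0, between the Ghr probe used and the most variable Ghr probe with normexp (-0.051) and between the Igf1 probe used and that of the cDNA clone with the authors' values (-0.033).

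Leaving out each mouse in turn gave 0 to 1 of the 9 genes past the threshold in Conv + LM vs. Conv + PBS (688 to 1002 of 20404 genes), 0 to 2 in Conv + OM(HFD) vs. Conv + LM (2 without Conv + LM mouse 17; 472 to 767 of 20404 genes) and 2 to 6 pairs, beside 4. In Conv + OM(HFD) vs. Conv + PBS the range was -0.11 to 0.019 for Ghr, -0.024 to 0.076 for Igf1, -0.36 to 0.35 for Cish and -0.11 to 0.0091 for Igfbp4. In Conv + LM vs. Conv + PBS it was -0.051 to 0.069 for Ghr, -0.46 to 0.37 for Socs2, -0.037 to 0.21 for Igfbp3, -0.036 to 0.10 for Igfbp4 and -0.11 to 0.016 for Stat5b. The number of arrays and the spread of a gene between mice limit the precision. With 5 or 6 mice a group, the 95% confidence interval of the Conv + OM(HFD) vs. Conv + PBS difference was 2.45 log2 units wide for Socs2 and 2.49 for Cish, against 0.416 for Igf1.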
